A study of Mus musculus with 26 samples.

Results

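Mouse embryonic stem cell lines that lack Prdm14 but carry a Prdm14 transgene were set against the knockout cells after LIF had been removed. The comparison was chosen by the array titles and holds 4 of the 26 arrays of the series, 2 from cells with the transgene and 2 from the knockout. The transgene cells are Prdm14(-/-) with the pPyCAG-AGP14 plasmid, which codes for an Avitag-EGFP-Prdm14 fusion and is named for a CAG expression vector rather than for the Prdm14 promoter (AGP14 below). The knockout cells are Prdm14(-/-) without it (KO), and 2 arrays of Prdm14(+/+) cells (WT) in the same medium stand beside them. All of these cells were C57BL/6 and male, grew on embryonic fibroblast feeders, and were kept for 2 days in medium with 20% fetal bovine serum and no LIF. The labels call the AGP14 and KO cells stem-cell-like and the WT cells stem cells, and do not say how many clones or cultures each line comes from. A further 4 arrays of AGP14 and KO cells in the same serum medium with LIF (1000 units per ml) were used to ask whether the difference depended on LIF.

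PRDM14 is a PR-domain zinc finger protein of the early epiblast, of primordial germ cells and of naive embryonic stem cells, where it works with MTG family corepressors and polycomb proteins. It is known for holding down FGF receptor and de novo DNA methyltransferase genes. LIF acts on the cell through its receptor LIFR with gp130, the product of Il6st, and through STAT3, and it keeps up transcription factors of the naive state such as KLF4 and TFCP2L1. Serum without LIF lets stem cells drift toward a primed, epiblast-like state.

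Each gene was read from 1 probe set, the one with the highest mean over all arrays, as a log2 value. The base of the logarithm was inferred from the highest value, since no source used here states it. Array medians of the 4 arrays lay between 4.90 and 4.92, and the added control RNAs lay at 1 common level in the arrays of both serum media, with lys between 6.77 and 7.38. Embryonic stem cell markers were present in every array: the mean over Pou5f1, Sox2, Nanog, Zfp42, Esrrb and Utf1 was 11.09 and 11.12 in AGP14, 9.88 and 10.16 in KO, and 10.31 and 10.64 in WT. Differences are given as AGP14 minus KO on the log2 scale with their standard error (SE), and genes are said to rise or fall only where limma's adjusted p was under 0.05. Since nothing in the labels says that the 2 arrays of a group came from separate cultures, these p-values measure only the spread between arrays, which may be technical.

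The Prdm14 probe set read 5.12 and 4.86 in AGP14, 3.21 and 4.05 in KO, and 4.28 and 5.17 in WT. Both AGP14 arrays lay above both KO arrays, by 1.36 (SE 0.41, adjusted p = 0.0326), and overlapped WT (0.27, adjusted p = 0.768). The call against KO was lost without AGP14 replicate 1 (difference 1.23), AGP14 replicate 2 (1.49) or KO replicate 1 (0.94). It was also lost in limma with no intensity trend (adjusted p = 0.0634), with the compared arrays alone (0.0507) and with values under 3 raised to 3 (0.0571). No source used here says whether this probe set detects the transgene or lies in the deleted part of the gene. In 2i and with a MEK inhibitor it went against the labels. In 2i it read 9.21 ± 0.13 (SD, n = 2) in AGP14, 11.29 ± 0.06 in the arrays labelled KO and 9.18 ± 0.32 in WT. The added control RNA lys lay between 6.77 and 7.38 in the set of arrays that holds AGP14 in 2i. It lay between 13.39 and 13.57 in the set that holds KO and WT in 2i. AGP14 against KO or WT in 2i thus crosses 2 sets of arrays, while KO against WT in 2i lies within 1 set. With the MEK inhibitor PD0325901 in serum, where KO and WT lie in that same set, the Prdm14 probe set read 10.74 ± 0.19 in the arrays labelled KO and 9.26 ± 0.31 in WT. In serum with LIF the probe set was 6.38 ± 0.06 in AGP14, 5.94 ± 0.76 in KO and 6.63 ± 1.06 in WT. KO had the lowest mean there, but its arrays (5.40 and 6.47) overlapped those of AGP14 (6.42 and 6.33) and WT (5.88 and 7.38). Epiblast-like cells were the lowest of all groups, at 3.07 ± 0.19 on day 2 and 2.90 ± 0.30 on day 3. Every direction below therefore rests on the labels.

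The transgene cells differed from the knockout in 2421 of 18193 genes (13.3%). Of these, 1471 genes rose (8.09%) and 950 fell (5.22%), a share of 60.8% higher, which became 50.1% after quantile normalization between arrays. In all 2421 the 4 arrays did not overlap between the groups, as was so for 54.1% of all genes. Rises outnumbered falls among larger differences too: 390 genes rose and 283 fell by more than 1, and 103 rose and 43 fell by more than 2. The median over all genes was 0.01. Counts of list members given below stand against 8.09% of all genes rising and 5.22% falling. Without any 1 of the 4 arrays the count was lower, 1468 and 1290 without AGP14 replicate 1 and 2, and 1498 and 1543 without KO replicate 1 and 2.

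**Figure D1:**
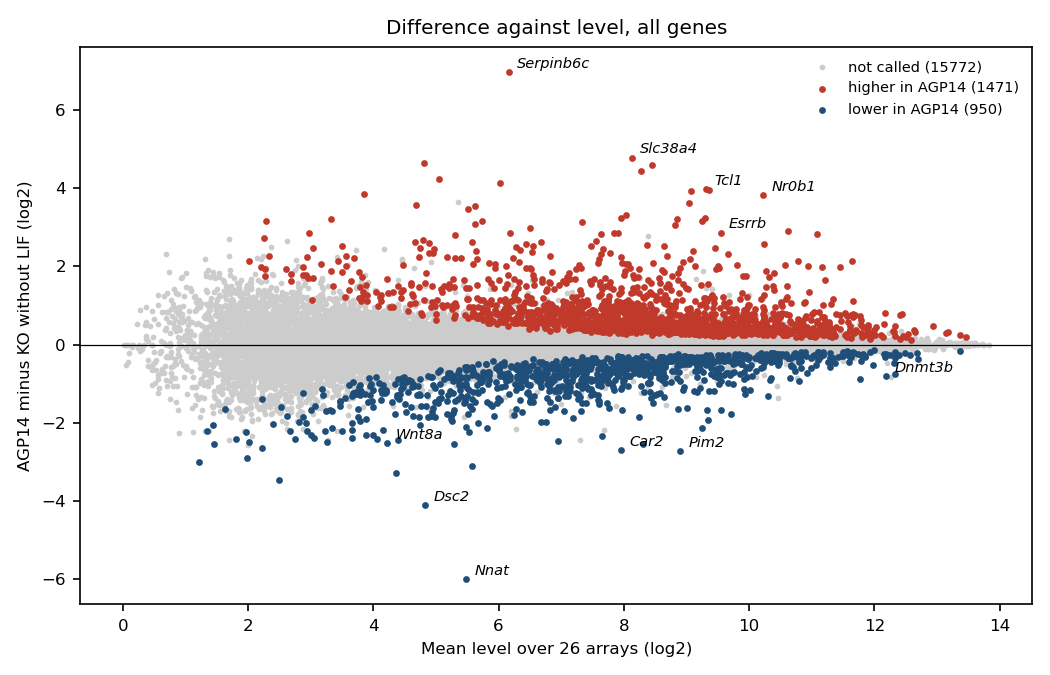
AGP14 minus KO without LIF (log2, vertical axis) against the mean level over all 26 arrays (log2, horizontal axis), 1 point per gene, with the 1471 genes that rose in red, the 950 that fell in blue and the rest in grey. Serpinb6c and Nnat mark the ends of the range, and low values spread widely without being called.

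Genes of the naive state had the largest median difference of the 31 lists, except that with dim genes left out the 2 members of the Rhox and X-linked homeobox list still measured had a median of 2.06. Of 24 measured naive pluripotency genes, 20 rose and none fell, where 8.09% of all genes rose. Their median difference was 1.44 against 0.01 over all genes. The count was 17 and 16 without AGP14 replicate 1 and 2, 17 and 18 without KO replicate 1 and 2, and none fell in any of these fits. In bulk RNA, fewer naive cells and less of their RNA per cell cannot be told apart.

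Nr5a2, an orphan receptor that binds regulatory elements of Pou5f1, read 9.46 and 9.58 in AGP14, 4.67 and 5.50 in KO, and 6.80 and 7.74 in WT. AGP14 lay above KO by 4.43 (SE 0.29, adjusted p = 2.34e-08), a 21.6-fold difference, and the 3 genotypes did not overlap. The other 3 probe sets of Nr5a2 ran from -0.65 to 4.65.

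Nr0b1, which encodes the receptor-like cofactor DAX1, read 11.21 and 11.31 in AGP14, 7.05 and 7.81 in KO, and 8.98 and 10.04 in WT. Its difference was 3.83 (SE 0.27, adjusted p = 3.98e-08), or 14.2-fold. Esrrb, an orphan receptor that can stand in for LIF signalling when overexpressed, read 9.94 and 10.11 in AGP14, 6.79 and 7.53 in KO, and 7.81 and 8.85 in WT, and rose by 2.87 (SE 0.27, adjusted p = 9.59e-07). For both genes the AGP14 arrays stood above WT as well as KO, with KO the lowest.

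The Kruppel-like factors, which bind the enhancers of many naive genes, rose together. Klf4 read 11.34 and 11.49 in AGP14, 8.23 and 8.78 in KO, and 8.49 and 9.73 in WT, and rose by 2.91 (SE 0.36, adjusted p = 2.45e-05). Klf2 read 11.67 and 11.88 in AGP14, 9.99 and 9.55 in KO, and 10.94 and 11.21 in WT, a rise of 2.00 (SE 0.14, adjusted p = 3.49e-08). Klf5 rose by 1.47 (SE 0.11, adjusted p = 1.18e-07). Klf4 separated AGP14 from both other genotypes, whose arrays overlapped, whereas Klf2 and Klf5 in WT lay between AGP14 and KO.

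Nanog, the homeobox factor whose overexpression makes stem cells independent of LIF, read 11.64 and 11.79 in AGP14, 9.55 and 9.90 in KO, and 9.85 and 10.50 in WT. It rose by 1.99 (SE 0.18, adjusted p = 8.19e-07), and the KO and WT arrays overlapped. Tfcp2l1, a CP2 family factor downstream of STAT3, read 9.24 and 9.53 in AGP14, 6.11 and 6.20 in KO, and 6.32 and 7.60 in WT, a rise of 3.23 (SE 0.29, adjusted p = 7.36e-07). Tcl1, which encodes an AKT coactivator, read 10.50 and 10.78 in AGP14, 6.33 and 6.98 in KO, and 7.94 and 8.82 in WT, a rise of 3.98 (SE 0.30, adjusted p = 9.69e-08). Other probe sets of Tfcp2l1 ran from -0.23 to 1.28, lower than the one used.

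Further naive genes rose as well. Manba, which encodes a lysosomal mannosidase, rose by 2.58, the T-box factor gene Tbx3 by 2.26, the F-box gene Fbxo15 by 1.99, the zinc finger gene Zfp42 (Rex1) by 1.09 and the imprint protector Zfp57 by 0.90. Among the 4 members that did not pass, Dppa3, which encodes a protector of the maternal methylome, had the largest difference, 1.41 (adjusted p = 0.241), with 10.24 and 10.59 in AGP14 and 8.33 and 9.68 in KO. Fgf4, the FGF ligand that stem cells make themselves, differed by 0.47 (adjusted p = 0.192). Manba, Tbx3, Fbxo15, Dppa3 and some other list members named here fall outside the naming rule and were chosen after their values were seen.

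For much of the list AGP14 was higher than WT as well. Of the 24 genes, 15 were higher in AGP14 than in WT and none lower (median 0.70), where 6.34% of all genes were higher and 10.7% differed either way. Between KO and WT, 11 were lower in KO and none higher (median -0.73), where 2.44% of all genes were lower, 1.75% higher and 4.19% differed. These comparisons share their arrays with AGP14 against KO. Within WT, replicate 1 lay below replicate 2 for 9 of the genes described above: Nr5a2, Nr0b1, Esrrb, Klf4, Klf2, Klf5, Nanog, Tfcp2l1 and Tcl1. Without WT replicate 1 the count of all genes that differed between AGP14 and WT was 462, against 1941 with it.

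**Figure D2:**
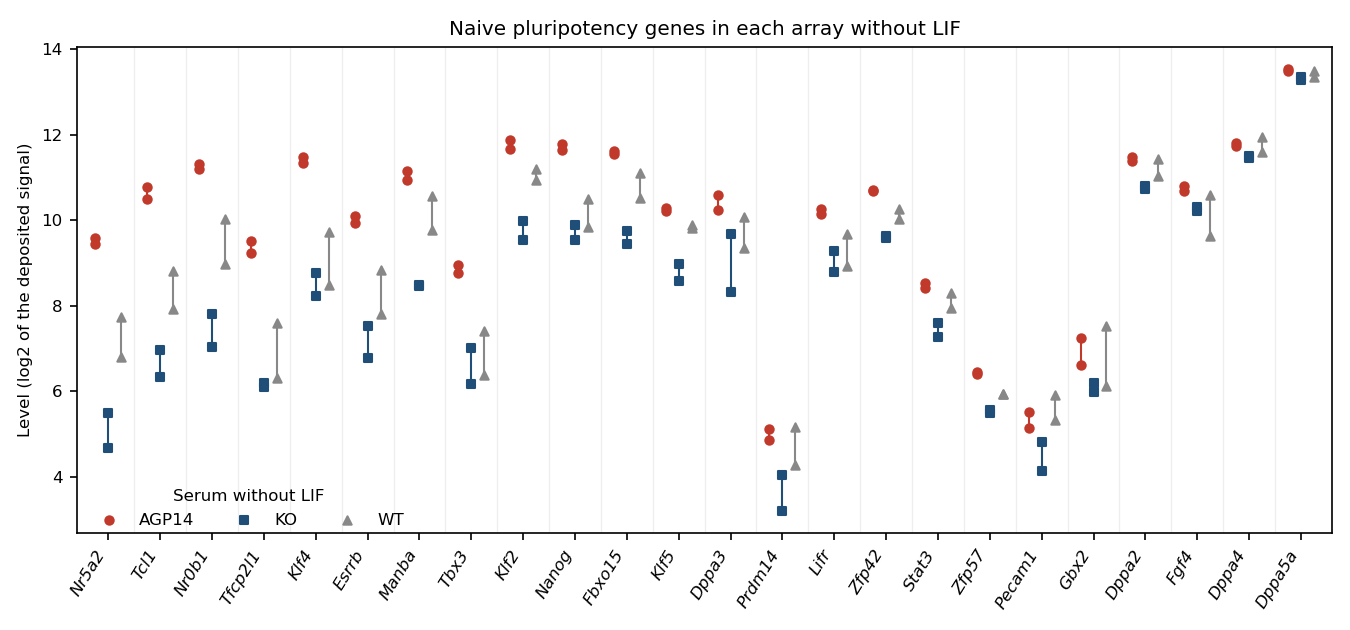
Log2 level (vertical axis) of the 24 measured naive pluripotency genes in each array without LIF, ordered by AGP14 minus KO, with AGP14 as red circles, KO as blue squares and WT as grey triangles, and a line joining the 2 arrays of a group. For Nr5a2 the AGP14 arrays read 9.46 and 9.58 and the KO arrays 4.67 and 5.50, and toward the right the groups draw together.

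Part of the pathway of the withdrawn cytokine rose in the same arrays, where 8.09% of all genes rose and 5.22% fell. Of 16 genes of LIF signalling and STAT3 response, 6 rose and none fell, with a median of 0.50, and the count was 6 without any 1 of the 4 arrays. Lifr, the LIF receptor subunit, read 10.15 and 10.27 in AGP14, 8.80 and 9.29 in KO, and 8.94 and 9.69 in WT, a rise of 1.17 (SE 0.18, adjusted p = 0.000239). Il6st, which encodes the shared subunit gp130, read 9.34 and 9.40 in AGP14, 8.66 and 8.82 in KO, and 9.16 and 9.21 in WT, a rise of 0.63 (SE 0.09, adjusted p = 0.000152). Stat3, which encodes the transcription factor itself, read 8.53 and 8.42 in AGP14, 7.27 and 7.59 in KO, and 8.30 and 7.95 in WT, and rose by 1.05 (SE 0.14, adjusted p = 4.07e-05). Receptor, coreceptor and transcription factor were thus each higher in AGP14 than in KO, with no overlap between those arrays. The other 3 genes that rose were Klf4, Klf5 and Tfcp2l1, given above with the naive genes. Lifr is a member of the naive list as well, so most of these rises are not separate from those of the naive genes. Other probe sets ran from -0.90 to 1.13 for Lifr and from -0.12 to 0.74 for Stat3, and with the mean of probe sets Lifr did not pass (0.47, adjusted p = 0.187).

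The promoters of Lifr and Esrrb are shown because they hold the letters that ESRRB and STAT factors are known to bind, and both genes rose. Both are RefSeq windows of build GRCm38.p6, from 250 bases before to 50 after the gene's start, on the + strand, at chr15:7129322-7129621 for Lifr and chr12:86360867-86361166 for Esrrb. Capitals mark CAAGGTCA, the half-site of ESRRB and NR5A2, on the opposite strand in Lifr, and TTCNNNGAA, the STAT motif, in Esrrb.
Lifr: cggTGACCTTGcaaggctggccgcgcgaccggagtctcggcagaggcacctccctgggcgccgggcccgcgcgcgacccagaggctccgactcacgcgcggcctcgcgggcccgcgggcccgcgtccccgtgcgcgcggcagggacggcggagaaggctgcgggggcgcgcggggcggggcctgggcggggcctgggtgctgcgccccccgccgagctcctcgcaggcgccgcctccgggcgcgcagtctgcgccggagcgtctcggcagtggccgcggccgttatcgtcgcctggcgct
Esrrb: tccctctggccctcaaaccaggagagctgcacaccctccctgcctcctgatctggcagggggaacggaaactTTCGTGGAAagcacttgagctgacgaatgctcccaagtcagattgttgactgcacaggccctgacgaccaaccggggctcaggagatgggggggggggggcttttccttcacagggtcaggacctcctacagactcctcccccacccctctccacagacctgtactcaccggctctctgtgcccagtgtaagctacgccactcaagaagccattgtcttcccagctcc
Searched on both strands, CAAGGTCA was in the windows of 1.58% of 14452 tested genes with a window and of 1.67% of the 1196 such genes that rose. TTCNNNGAA was in 8.57% of all and 9.11% of the genes that rose. Among the 15 naive genes with a window, CAAGGTCA was in Lifr and Zfp57 and TTCNNNGAA in Esrrb. The PRDM14 motif GGTCTCTAA was in 0.284% of all windows and 0.334% of those of genes that rose. Such matches describe the letters and are no evidence of binding.

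Genes of primordial germ cells, the other home of Prdm14, rose in 8 of 11 measured cases and fell in none, with a median of 1.36. Of all genes 8.09% rose. The list appears to hold Prdm14 itself, whose difference equals that median, and Dppa3 of the naive list. It is thus not separate from the target or from the naive genes. The count ran from 6 to 8 when 1 array was left out. Tfap2c, which encodes the AP-2 gamma factor of germ cell specification, read 10.08 and 10.40 in AGP14, 7.69 and 8.17 in KO, and 8.74 and 8.93 in WT, a rise of 2.31 (SE 0.23, adjusted p = 2.30e-06). Ifitm3, which encodes the germ cell surface protein fragilis, rose by 1.65 (SE 0.21) and its neighbour in the family Ifitm1 by 1.35 (SE 0.13). Kit, the receptor for stem cell factor, rose by 1.44 (SE 0.21), Alpl, the tissue-nonspecific alkaline phosphatase, by 1.29 (SE 0.17), and Sox2 by 0.80 (SE 0.10). Each of these 6 genes was also higher in AGP14 than in WT. The core factor Pou5f1 differed by 0.12 (adjusted p = 0.172), with 12.38 and 12.36 in AGP14 and 12.25 and 12.26 in KO.

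The genes for Prdm14's corepressor partners rose in 4 of 9 cases and fell in none (median 0.28). Cbfa2t2, which encodes the MTG protein that binds PRDM14, averaged 10.01 ± 0.01 in AGP14, 9.08 ± 0.10 in KO and 9.47 ± 0.16 in WT (SD, n = 2 each), a rise of 0.93 (SE 0.08, adjusted p = 7.36e-07). Its relative Runx1t1 read 8.81 and 9.24 in AGP14, 6.83 and 6.71 in KO, and 6.14 and 7.10 in WT, a rise of 2.25 (SE 0.24, adjusted p = 4.75e-06). Runx1t1 thus stood apart in AGP14 alone, since its KO and WT arrays overlapped. Of 19 polycomb genes, 6 rose and 1 fell (median 0.34). Eed, which reads the H3K27 methyl mark, rose by 0.73 (SE 0.07), the E3 ligase gene Rnf2 by 0.40 (SE 0.05) and the methyltransferase gene Ezh2 by 0.34 (SE 0.06), while Rbbp7, a histone-binding subunit of several complexes, fell by 0.36 (SE 0.05). Other probe sets of Cbfa2t2 ran from -0.11 to 0.43, and the second probe set of Eed gave -0.25. With the mean of probe sets, Eed (0.24, adjusted p = 0.38) and Rnf2 (0.40, adjusted p = 0.309) did not pass and the list had 3 rises.

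Of 8 measured DNA methylation genes, 4 rose and 1 fell. The maintenance methyltransferase gene Dnmt1 read 10.92 and 10.93 in AGP14, 10.45 and 10.35 in KO, and 10.65 and 10.74 in WT, a rise of 0.53 (SE 0.08, adjusted p = 0.000183), and its partner Uhrf1 rose by 0.51 (SE 0.10). Dnmt3b, a de novo methyltransferase, read 12.42 and 12.30 in AGP14, 13.20 and 13.12 in KO, and 13.16 and 13.05 in WT, a fall of -0.80 (SE 0.25, adjusted p = 0.0413). The AGP14 arrays were the lowest of the 6, but the Dnmt3b call was lost with no intensity trend (adjusted p = 0.0842), with values under 3 raised to 3 (0.0777) and without any 1 of the 4 arrays compared (adjusted p = 0.116, 0.198, 0.171 and 0.123, the AGP14 arrays first).

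Of 9 demethylation genes 3 rose and none fell (median 0.33), also without any 1 of the 4 arrays. Tet1, the main 5-methylcytosine dioxygenase of stem cells, read 11.45 and 11.34 in AGP14, 10.43 and 10.36 in KO, and 10.88 and 10.91 in WT, a rise of 1.00 (SE 0.07, adjusted p = 4.43e-08). Tet2 read 8.89 and 8.90 in AGP14, 7.13 and 7.24 in KO, and 7.14 and 8.12 in WT, a rise of 1.71 (SE 0.25, adjusted p = 0.000134). The cytidine deaminase gene Apobec3 rose by 1.17 (SE 0.15). Tet1 was graded, with AGP14 highest, WT between and KO lowest.

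Genes of the primed state moved the other way, though fewer passed, where 5.22% of all genes fell and 8.09% rose. Of 21 measured, 6 fell and 1 rose, with a median of -0.63. Fewer fell without any 1 of the 4 arrays, where the median ran from -0.63 to -0.345. Across the other settings the number that fell ran from 5 with no intensity trend to 11 with the compared arrays alone. It was 8 with the replicate block and with genotype and number as a random block. Pim2, which encodes a serine/threonine survival kinase, read 8.03 and 7.65 in AGP14, 10.76 and 10.38 in KO, and 11.33 and 10.56 in WT, a fall of -2.73 (SE 0.35, adjusted p = 3.16e-05). Pou3f1, the POU factor OCT6 of the epiblast, read 9.71 and 9.40 in AGP14, 11.34 and 11.64 in KO, and 11.89 and 11.28 in WT, a fall of -1.94 (SE 0.44, adjusted p = 0.00508). Both were lowest in AGP14, with KO and WT overlapping.

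The tight junction gene Cldn6 fell by -1.27 (SE 0.23), the SoxB1 gene Sox3 by -1.47 (SE 0.36) and the Hippo effector gene Tead2 by -0.72 (SE 0.09), beside Dnmt3b. The member that rose was Lefty2, a Nodal antagonist, by 1.49 (SE 0.38), with 10.09 and 10.70 in AGP14, 8.13 and 9.67 in KO, and 10.21 and 10.27 in WT. Fgf5, the ligand most used as a mark of the primed epiblast, differed by -1.53 and did not pass (SE 0.68, adjusted p = 0.161). Some of these calls rest on 1 array: Pou3f1 was lost without AGP14 replicate 2 (adjusted p = 0.0592) or KO replicate 2 (0.0513), Sox3 without AGP14 replicate 2 (0.115) or KO replicate 1 (0.0988), and Lefty2 without the same 2 arrays (0.151 and 0.266).

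**Figure D3:**
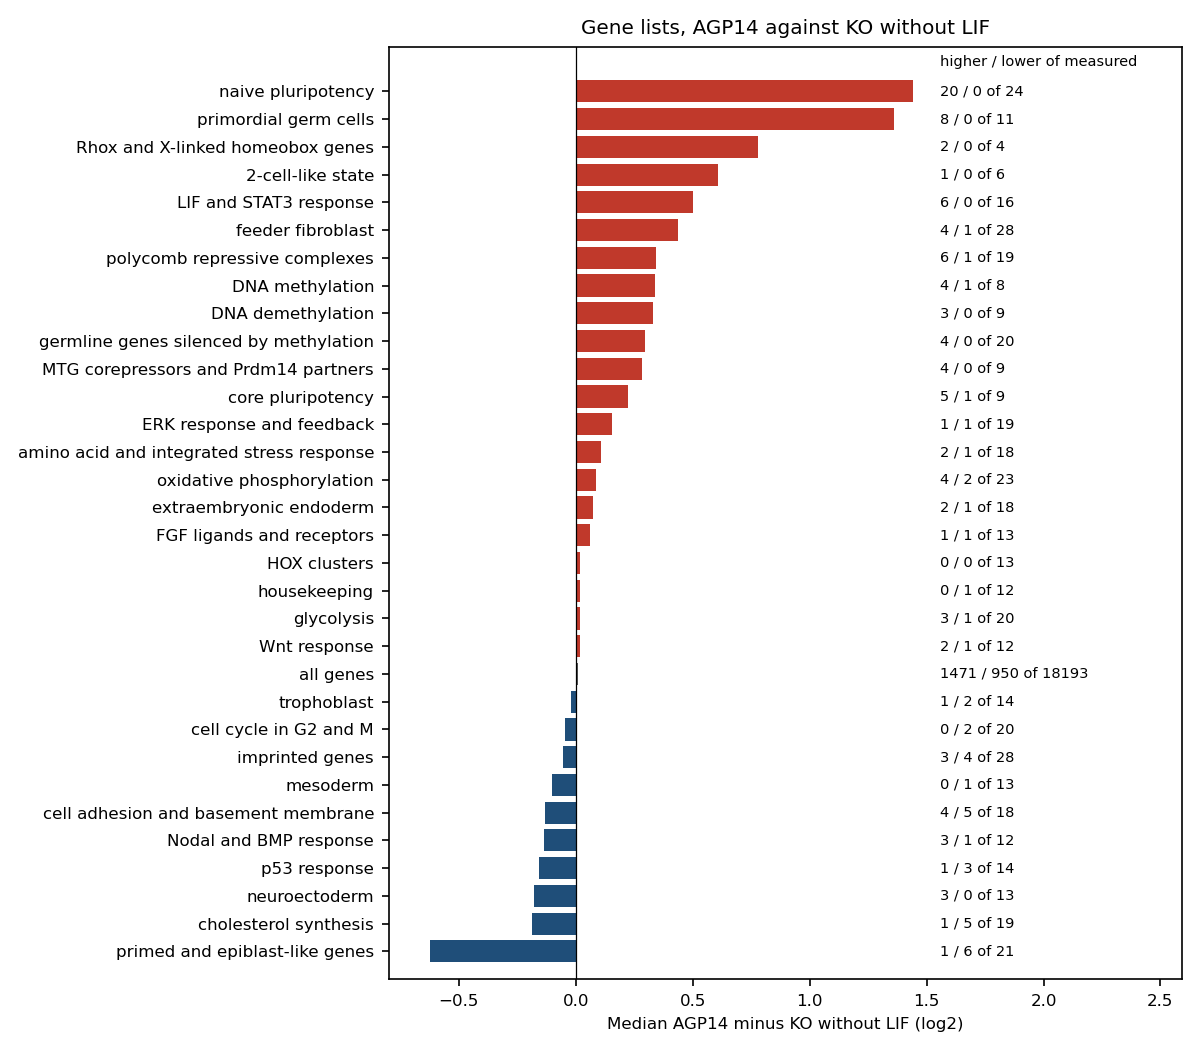
Median AGP14 minus KO difference without LIF (log2, horizontal axis) of each of the 31 gene lists and of all genes, with the number of members that rose and fell of those measured at the right. Naive pluripotency (1.44) and primordial germ cells (1.36) are at the top, all genes lie at 0.01, and primed and epiblast-like genes (-0.63) are at the bottom.

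Among the 15 largest rises, some brought AGP14 level with WT and others stood above it. Slc38a4, an imprinted gene for an amino acid transporter, read 9.46 and 9.81 in AGP14, 4.71 and 5.0 in KO, and 9.77 and 9.63 in WT. It rose by 4.78 (SE 0.40, adjusted p = 3.23e-07), or 27.5-fold, and differed from WT by -0.07 (adjusted p = 0.95). Rhox5, an X-linked homeobox gene of the reproductive tract and early embryo, read 11.24 and 10.59 in AGP14, 6.65 and 7.29 in KO, and 11.12 and 10.10 in WT, a rise of 3.94 (SE 0.56, adjusted p = 9.19e-05). The predicted gene Gm21283 showed the same layout, with 6.95 and 6.91 in AGP14, 3.12 and 2.48 in KO, and 7.52 and 7.46 in WT. AGP14 and WT arrays overlapped for Slc38a4 and Rhox5, and for Gm21283 they differed by -0.56 (adjusted p = 0.666).

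Serpinb6c, of the clade B protease inhibitors, had the largest rise of all genes. It read 7.92 and 8.02 in AGP14, 0.59 and 1.43 in KO, and 4.30 and 5.51 in WT, a difference of 6.96 (SE 0.54, adjusted p = 1.18e-07), or 4.97 with values under 3 raised to 3. The KO values lie below the 25th percentile of their arrays' probe sets, where the authors' treatment of dim signals bears most on a difference. Jam2, which encodes a junctional adhesion molecule, read 9.49 and 9.42 in AGP14, 5.19 and 5.89 in KO, and 7.27 and 7.91 in WT, a rise of 3.91 (SE 0.30, adjusted p = 1.27e-07). Gad1, the enzyme gene for GABA synthesis, rose by 4.65 (SE 0.64) to 7.10 and 7.03 in AGP14, against 2.15 and 2.68 in KO and 4.87 and 4.60 in WT. For these 3 genes AGP14 was highest, WT between and KO lowest.

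Mymx, known for the muscle fusion peptide myomixer, read 9.82 and 9.86 in AGP14, 5.14 and 5.37 in KO, and 4.64 and 7.55 in WT, a rise of 4.58 (SE 0.66). Its AGP14 arrays stood clear of a KO and WT range that overlapped. Obox6, an oocyte-type homeobox gene, rose by 4.24 (SE 0.78), the unconventional myosin gene Myo1f by 3.57 (SE 0.34), the cation channel gene Trpm1 by 3.54 (SE 0.42), 2210409E12Rik by 3.62 (SE 0.45) and Vax2os by 3.86 (SE 0.71). The second probe set of Vax2os gave -0.95, and with the mean of its probe sets it did not pass (1.46, adjusted p = 0.151). With values under 3 raised to 3 its rise was 2.28. Of the 15 genes, 11 were higher in AGP14 than in WT and 4 were not called, and 9 were lower in KO than in WT and 6 were not called. Of all genes, 6.34% were higher in AGP14 than in WT and 2.44% were lower in KO than in WT. The choice of the 15 by AGP14 minus KO shares arrays with both comparisons, so these counts follow in part from it.

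**Figure D4:**
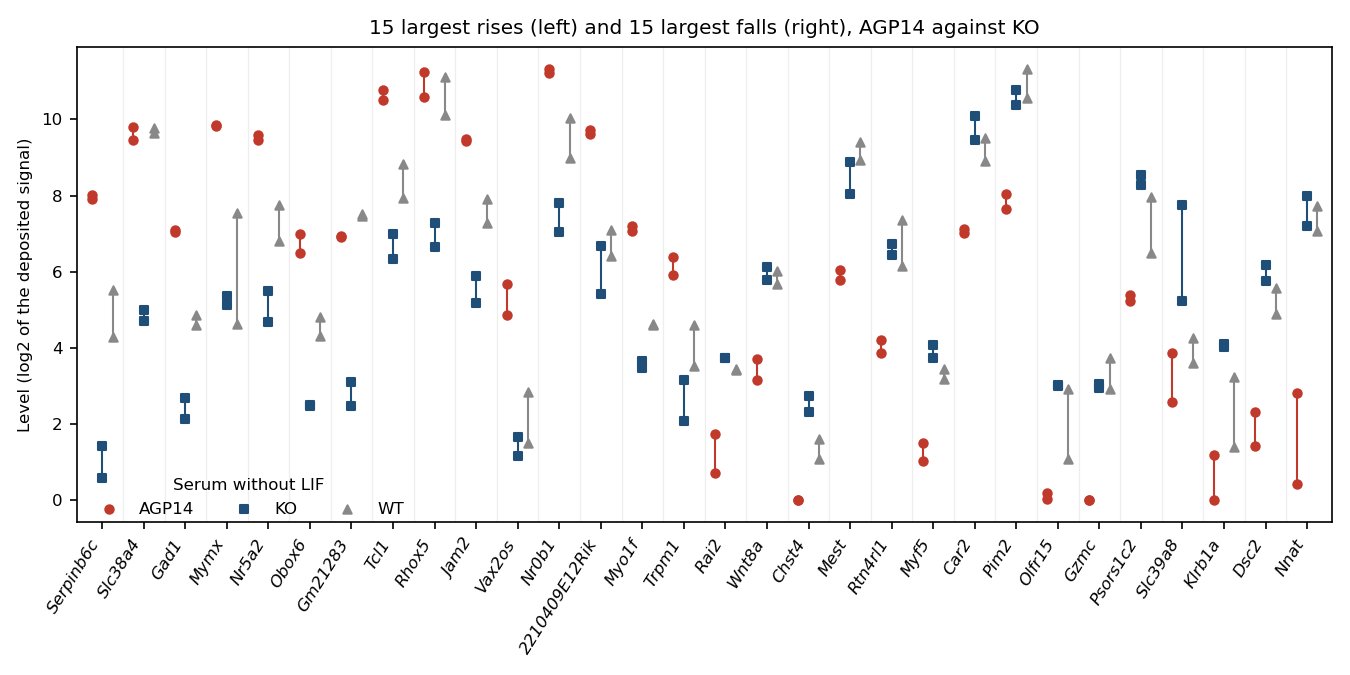
Log2 level (vertical axis) in each array without LIF of the 15 largest rises (left, Serpinb6c to Trpm1) and the 15 largest falls (right, ending with Nnat), with AGP14 as red circles, KO as blue squares, WT as grey triangles and a line joining the 2 arrays of a group. Slc38a4 and Rhox5 show AGP14 beside WT, while Pim2 and Mest show KO beside WT.

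The 15 largest falls were also set against WT. Of these, 11 were lower in AGP14 than in WT and 4 were not called, and none was called between KO and WT. Of all genes, 4.33% were lower in AGP14 than in WT and 4.19% differed between KO and WT, so no KO against WT call among 15 is near the share over all genes. In Dsc2 the KO arrays lay above the WT arrays without a call. The 15 were chosen by AGP14 minus KO, which shares arrays with both comparisons, so these counts follow in part from the choice. Nnat, the imprinted gene for neuronatin, read 2.82 and 0.42 in AGP14, 8.0 and 7.21 in KO, and 7.07 and 7.73 in WT, a fall of -5.99 (SE 0.69, adjusted p = 9.39e-06). With values under 3 raised to 3 the fall of Nnat was -4.6. Mest, another imprinted gene that encodes a hydrolase-like protein, read 6.04 and 5.78 in AGP14, 8.87 and 8.03 in KO, and 8.92 and 9.40 in WT, a fall of -2.54 (SE 0.31, adjusted p = 1.99e-05). In both, the AGP14 arrays were the lowest of the 6. The imprinted sarcoglycan gene Sgce fell by -1.69 (SE 0.20) and the imprinted zinc finger gene Plagl1 rose by 1.44 (SE 0.32). Of 28 imprinted genes 4 fell, or 7 with the replicate block, and 3 rose (median -0.05). Sgce and Plagl1 did not pass with the mean of probe sets (-0.69, adjusted p = 0.302, and 0.77, adjusted p = 0.167).

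Epithelial genes were among the falls. Dsc2, which encodes the desmosomal cadherin desmocollin, read 2.32 and 1.44 in AGP14, 6.19 and 5.77 in KO, and 5.57 and 4.90 in WT, a fall of -4.10 (SE 0.39, adjusted p = 9.93e-07). The simple-epithelium keratin gene Krt8 read 6.77 and 6.42 in AGP14, 8.92 and 8.92 in KO, and 7.93 and 7.29 in WT, a fall of -2.33 (SE 0.32). In both genes the AGP14 arrays lay below those of KO and WT. Its partner Krt18 fell by -1.67 (SE 0.45), and that call was lost without any 1 of the 4 arrays (adjusted p 0.08 to 0.0934). Of 18 adhesion and basement membrane genes 5 fell and 4 rose (median -0.13), the rises numbering 2 without AGP14 replicate 1, AGP14 replicate 2 or KO replicate 1. The basement membrane linker gene Nid1 rose by 1.94 (SE 0.14), while the desmosomal genes Dsg2 and Dsp fell by -1.01 (SE 0.22) and -0.80 (SE 0.13). Other probe sets ran from -1.15 to 0.17 for Dsg2 and from -1.22 to 0.82 for Dsp, and Dsp did not pass with their mean (-0.40, adjusted p = 0.58).

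Car2, a cytosolic carbonic anhydrase gene, read 7.13 and 7.02 in AGP14, 9.45 and 10.08 in KO, and 9.50 and 8.90 in WT, a fall of -2.69 (SE 0.47, adjusted p = 0.000739). Wnt8a, a Wnt ligand of the posterior embryo, read 3.72 and 3.15 in AGP14, 6.13 and 5.78 in KO, and 6.03 and 5.68 in WT, a fall of -2.52 (SE 0.32, adjusted p = 2.88e-05). The Nogo receptor relative Rtn4rl1 fell by -2.55 (SE 0.45) and Psors1c2 by -3.10 (SE 0.43). For these 4 genes both AGP14 arrays lay below all KO and WT arrays, and no KO against WT difference was called. Like Nnat, Dsc2 and Wnt8a, the rest of the 15 were dim in AGP14, under 4. They were the metal transporter gene Slc39a8 (-3.27), the lymphoid genes Klrb1a (-3.47) and Gzmc (-2.99), the odorant receptor gene Olfr15 (-2.90), the myogenic factor gene Myf5 (-2.64), Rai2 (-2.50) and the sulfotransferase gene Chst4 (-2.54). Gzmc and Chst4 were listed at 0 in both AGP14 arrays. With values under 3 raised to 3, Gzmc (-0.03), Olfr15 (-0.01) and Chst4 (0.00) were no longer called, and Klrb1a (-1.06), Myf5 (-0.91) and Rai2 (-0.74) kept a call at a smaller size. Without 1 array, Slc39a8 was lost without AGP14 replicate 2 (adjusted p = 0.0851) or KO replicate 1 (0.123), Klrb1a without AGP14 replicate 1 (0.0833), Rai2 without AGP14 replicate 2 (0.052) and Olfr15 without any of the 4 (0.0693 to 0.0822).

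Germline genes that promoter methylation usually silences rose in 4 of 20 cases and fell in none (median 0.29), with counts of 1 and 3 without AGP14 replicate 1 and 2 and of 2 without either KO array. Hormad1, which encodes a meiotic axis protein, read 9.15 and 9.27 in AGP14, 6.77 and 5.92 in KO, and 8.40 and 8.76 in WT, a rise of 2.87 (SE 0.32, adjusted p = 8.06e-06). Ccnb1ip1, a gene of meiotic crossing over, read 5.0 and 4.72 in AGP14, 3.67 and 4.33 in KO, and 7.77 and 8.09 in WT. It rose by 0.86 (SE 0.20, adjusted p = 0.00611), and its difference from WT was -3.07 (adjusted p = 1.33e-07). Hormad1 in AGP14 thus lay above both WT arrays, without a call against WT (adjusted p = 0.25), while Ccnb1ip1 lay below both. Dazl, an RNA-binding germ cell gene, rose by 1.03 (SE 0.27). The call of Ccnb1ip1 was lost without AGP14 replicate 1 (adjusted p = 0.0833) or KO replicate 1 (0.139), and that of Dazl without AGP14 replicate 1 (0.122) or KO replicate 2 (0.151).

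FGF and ERK genes showed little common movement, where 13.3% of all genes were called. Of 13 FGF ligands and receptors 1 fell and 1 rose (median 0.06), with neither called without AGP14 replicate 2. With the replicate block 2 rose and 2 fell. The gene that fell was Fgfr1, the main FGF receptor gene of stem cells, with 7.99 and 7.78 in AGP14, 8.55 and 8.35 in KO, and 7.92 and 7.98 in WT. Its fall of -0.56 (SE 0.12, adjusted p = 0.00283) left the AGP14 and WT arrays overlapping (adjusted p = 0.808) and was lost without AGP14 replicate 2 (adjusted p = 0.0603) or KO replicate 1 (0.0526). Of 19 ERK response genes 1 rose and 1 fell (median 0.15), and none was called without any 1 of the 4 arrays. Of 12 Wnt response genes 2 rose, or 1 without AGP14 replicate 1 or KO replicate 2, and 1 fell, or 2 without AGP14 replicate 2. Lef1, which encodes a nuclear partner of beta-catenin, rose by 0.83 (SE 0.13), and Wnt8a was the gene that fell.

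Of 12 Nodal and BMP genes 3 rose and 1 fell, with the TGF-beta family ligand gene Gdf3 rising by 0.60 (SE 0.10), and 1 rose without AGP14 replicate 2 or KO replicate 1. The BMP response gene Id1 fell by -1.08 (SE 0.28, adjusted p = 0.0135), with 8.33 and 8.29 in AGP14 and 9.39 and 9.40 in KO, and its call was lost without any 1 of these arrays (adjusted p 0.068 to 0.0824). The 3 rises and 1 fall of this list gave a median of -0.13, so its median and its calls point opposite ways.

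Most markers of other lineages had no call, as was so for all genes, of which 8.09% rose and 5.22% fell. Of 13 mesoderm genes 1 fell and none rose, and of 13 HOX genes none was called. Of 13 neuroectoderm genes 3 rose and none fell, with a median of -0.18. Pax6, a homeobox factor of eye and forebrain, read 7.05 and 7.28 in AGP14, 4.99 and 4.89 in KO, and 4.69 and 5.12 in WT, a rise of 2.23 (SE 0.43, adjusted p = 0.00159), and the neuronal tubulin gene Tubb3 rose by 1.68 (SE 0.25). The other probe sets of Pax6 ran from -0.78 to 1.41, and with their mean it did not pass (0.65, adjusted p = 0.206). Of 18 extraembryonic endoderm genes 2 rose, or 1 without AGP14 replicate 1, AGP14 replicate 2 or KO replicate 1, and 1 fell: the factor gene Sox7 rose by 2.66 (SE 0.46), with a second probe set at -0.29, and Amn, which encodes a visceral endoderm membrane protein, fell by -1.58 (SE 0.32). The defining markers Gata4, Gata6, Sox7, Sox17, Dab2 and Afp averaged 4.60 and 4.87 in AGP14, 4.55 and 4.42 in KO, and 4.42 and 4.04 in WT, near the array median. Of 14 trophoblast genes 2 fell, the keratins above, and 1 rose, Tfap2c.

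Feeder fibroblast RNA was present in all arrays. Of 28 feeder genes 4 rose, 1 fell and 23 did not pass (median 0.44), where 13.3% of all genes were called. Fewer rose without AGP14 replicate 2 or KO replicate 2. Against WT, 19 were higher in AGP14 and none lower (median 0.77), where 6.34% of all genes were higher and 4.33% lower. The mean over these 28 genes was 7.47 and 7.40 in AGP14, 7.22 and 7.10 in KO, and 6.55 and 6.86 in WT. The defining markers Col1a1, Col1a2, Col3a1, Thy1 and Postn averaged 7.38 and 7.33 in AGP14, 7.04 and 6.95 in KO, and 6.19 and 6.76 in WT, and none was at 0. Fn1, the fibronectin gene, rose by 1.16 (SE 0.11), the intermediate filament gene Vim by 0.76 (SE 0.11) and the collagen gene Col3a1 by 0.74 (SE 0.18), while the matrix protease gene Mmp2 fell by -0.62 (SE 0.15). Their part in the results above was not tested. The calls of Col3a1 and Mmp2 did not hold up to leaving out 1 array: Col3a1 was lost without AGP14 replicate 1 (adjusted p = 0.0521), AGP14 replicate 2 (0.0682) or KO replicate 2 (0.0859), and Mmp2 without AGP14 replicate 2 (0.069) or KO replicate 1 (0.0942).

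Metabolic and growth genes had calls in each list given here, where 8.09% of all genes rose and 5.22% fell. Of 20 glycolysis genes 3 rose, or 1 without KO replicate 1, and 1 fell (median 0.02), with the platelet-type phosphofructokinase gene Pfkp at 10.80 and 10.78 in AGP14, 9.13 and 9.0 in KO, and 10.43 and 10.53 in WT, a rise of 1.73 (SE 0.11, adjusted p = 2.34e-08). Pfkp in AGP14 thus lay close to WT, with KO alone low. Of 19 cholesterol synthesis genes 5 fell and 1 rose (median -0.19), but 3 and 0 fell without AGP14 replicate 1 and 2 and 1 without either KO array. The sterol isomerase gene Ebp rose by 1.28 (SE 0.19). Of 14 p53 response genes 3 fell and 1 rose, with the desmosome-linked apoptosis gene Perp falling by -1.01 (SE 0.19), and 1 fell without AGP14 replicate 2 or KO replicate 1. Of 20 cell cycle genes of G2 and M 2 fell, and none without AGP14 replicate 1 or KO replicate 2.

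The same genotypes in serum with LIF gave 1912 genes that differed between AGP14 and KO (10.5%), 952 higher (5.23%) and 960 lower (5.28%). Of the genes that rose without LIF, 744 also rose in serum, which is 50.6% of the rises without LIF and 78.2% of those in serum. Of the genes that fell without LIF, 576 fell in serum, 60.6% of the falls without LIF and 60.0% of those in serum. A single gene, the deubiquitinase gene Usp28, was called in opposite directions (0.34 without LIF and -0.31 in serum). All 15 of the largest rises rose in serum too, and 9 of the 15 largest falls fell. Naive genes rose in 20 of 24 cases without LIF and in 15 of 24 in serum, with medians of 1.44 and 0.86. The 2 media share no arrays, but their cells may share a source, which the labels do not give.

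The difference between these differences was tested gene by gene, and 14 genes passed (0.077%), 12 with a larger value without LIF (0.066%) and 2 with a smaller one (0.011%). Klf2 was the naive gene among them: it read 11.67 and 11.88 in AGP14 and 9.99 and 9.55 in KO without LIF, and 11.97 and 11.90 in AGP14 and 11.36 and 11.07 in KO with LIF. The AGP14 levels were thus alike in both media, and the KO levels were lower without LIF. Its difference was larger without LIF by 1.28 (SE 0.19, adjusted p = 0.0185). Epas1, which encodes the hypoxia-inducible factor HIF-2 alpha, read 9.98 and 10.03 in AGP14 and 7.97 and 8.0 in KO without LIF, and 9.91 and 9.81 in AGP14 and 9.50 and 9.12 in KO with LIF. Its difference was larger by 1.47 (SE 0.21, adjusted p = 0.013).

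Morc1, needed for transposon silencing in the male germ line, was larger by 1.07 (SE 0.15, adjusted p = 0.013), the PHD finger gene Phf11d by 1.47 (SE 0.26, adjusted p = 0.0492) and the zinc finger gene Bnc2 by 1.20 (SE 0.19, adjusted p = 0.0185). All 3 rose in both media. Lama1, the laminin alpha chain gene of early basement membrane, passed in serum (3.01) and not without LIF (0.04): it read 7.0 and 7.24 in AGP14 and 3.86 and 4.36 in KO with LIF, and 4.82 and 5.10 in AGP14 and 4.58 and 5.25 in KO without LIF, a difference of differences of -2.96 (SE 0.53, adjusted p = 0.0492). The sugar transporter gene Slc2a13 had -3.21 (SE 0.58, adjusted p = 0.0492). The number of genes that passed depended on single arrays: it was 1 and 2 without AGP14 replicate 1 and 2 and 2 and 13 without KO replicate 1 and 2 of the medium without LIF. It was 4 and 8 without AGP14 replicate 1 and 2 and 0 and 7 without KO replicate 1 and 2 of serum, limma giving 785 genes at an unadjusted p under 0.05 where it called 0.

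**Figure D5:**
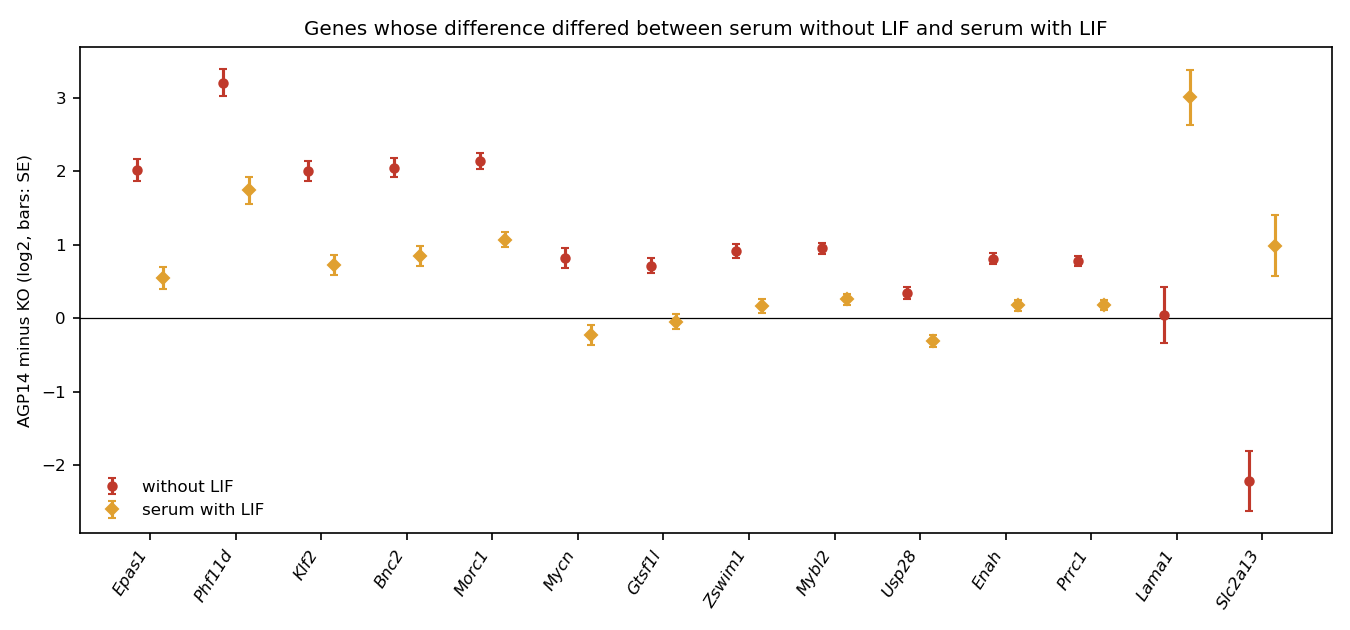
AGP14 minus KO (log2, vertical axis; bars are SE) without LIF (red circles) and in serum with LIF (yellow diamonds) for the 14 genes whose difference differed between the media, each point from 2 arrays a genotype. Klf2 differed by 2.00 without LIF and 0.72 in serum, and Lama1 by 0.04 and 3.01.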

How the data were processed

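RNA of 26 samples was hybridised to 1 Affymetrix array each, as biotin-labelled cRNA per the labels' protocols. The deposited table holds 1 log2 value per probe set and array, brought to a common scale by the authors; image analysis, background correction, normalization and summarisation are described in none of the sources used here. Of 45100 probe sets, 34944 had 1 gene symbol in the platform annotation, 932 had several and 9160 had none; the last 2 kinds were not used. Each of 18193 genes took its probe set with the highest mean.

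A limma 3.58.1 model (R 4.3.3) with 1 coefficient per group over the 13 groups of 2 arrays (13 residual degrees of freedom) used eBayes with a trend on intensity. Tests were two-sided, adjusted over all genes by the Benjamini-Hochberg method and called at 0.05. On simulated data for AGP14 against KO without LIF, over 18193 genes, the fit found 34 of 67 genes with a 1.5-fold change, 56 of 67 with a 2-fold and 62 of 66 with a 4-fold change, and 6 unchanged genes. Changes were planted only in genes with a KO mean above 5, so these rates do not cover dimmer genes. The number of arrays limits the precision. Summaries used Python 3.11.15, pandas 2.3.3 and numpy 2.4.6, and figures matplotlib 3.10.9.

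The comparison and the 31 gene lists were chosen with earlier results of these data known. Named genes were Prdm14, the 15 largest rises and falls called without overlap, the 5 largest of each sign between media, up to 6 members of each list by p, and marker levels. Alternatives were quantile normalization, the mean of a gene's probe sets, leaving out genes with a mean under 5, raising values under 3 to 3, no trend, the compared arrays alone, replicate number as a fixed block, genotype and number as a random block, and leaving out each array. List counts under each alternative were added after seeing the data.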

Additional observations from a re-analysis of the deposited data

Results flagged for a closer look

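In 14 genes the difference between AGP14 and KO was itself different between serum without LIF and serum with LIF, by the interaction test in limma. The value given for each is the difference without LIF minus that in serum, on the log2 scale; genes beyond the 5 largest of a sign are named here after their values were seen. Values above 0 were found for Epas1 (1.47), Phf11d (1.47), Klf2 (1.28), Bnc2 (1.20), Morc1 (1.07) and Mycn (1.05), and for Gtsf1l (0.76), Zswim1 (0.74), Mybl2 (0.69), Usp28 (0.65), Enah (0.64) and Prrc1 (0.60). Values below 0 were found for Lama1 (-2.96) and Slc2a13 (-3.21).

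Mycn, a MYC family gene, read 12.12 and 12.04 in AGP14 and 10.98 and 11.53 in KO without LIF, and 11.94 and 11.76 in AGP14 and 11.95 and 12.20 in KO with LIF (adjusted p = 0.0492). Mybl2, a cell cycle transcription factor gene, read 10.39 and 10.44 in AGP14 and 9.49 and 9.44 in KO without LIF, and 10.63 and 10.59 in AGP14 and 10.37 and 10.34 in KO with LIF (adjusted p = 0.0185). Slc2a13 read 1.71 and 1.48 in AGP14 and 4.33 and 3.29 in KO without LIF, and 4.03 and 4.21 in AGP14 and 3.63 and 2.63 in KO with LIF, all below the array median.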

How the results depend on the processing

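Across 8 settings other than leaving out an array, the number of genes called between AGP14 and KO without LIF ran from 1880 with the mean of probe sets to 2720 with the replicate block. Same-numbered AGP14 and KO arrays shared only a number, their deviations correlating at -0.025, and the block kept the count over all genes within 1.5 times. It raised some list counts by more: imprinted falls were 7 against 4, FGF rises and falls 2 each against 1 each, and Nodal and BMP falls, polycomb falls and 2-cell-like rises each 2 against 1. Same-numbered KO arrays without LIF correlated at 0.156 with those in serum, 0.109 with those with the MEK inhibitor and 0.099 with those in 2i, and AGP14 without LIF at 0.058 with AGP14 in serum, which bears on the test between media. Leaving out 1 array gave 1290 to 1543 genes. AGP14 against WT gave 462 to 1972 genes without 1 array and 930 in a model of the compared arrays alone. KO against WT gave 291 to 594 without 1 array, 466 with the mean of probe sets and 20 with the compared arrays alone. AGP14 against KO in serum gave 882 to 1169 without 1 array. Genes whose difference differed between media numbered 0 to 13 without 1 array, 33 with genotype and number as a random block and 4 by the mean of probe sets; limma without the trend called 0 (903 at an unadjusted p under 0.05). The share of higher genes between AGP14 and KO without LIF was 60.8%, and 50.1% with quantile normalization; the cause was not tested. Of 94 named genes called, 67 kept their call in every setting that measured them and 27 lost it in at least 1. Genes named only for the test between media, such as Epas1, Phf11d, Bnc2 and Morc1, are not in this count and were not checked gene by gene. Chst4 differed by -2.54, and by 0.00 with values under 3 raised to 3, as its AGP14 arrays are listed at 0 and all its values then are 3 in this comparison. Fgf5 passed with the compared arrays alone and with the replicate block, and Fgf4 with the compared arrays alone. With 2 arrays per group, the number of arrays limits what can be called.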
